A study of Macaca mulatta with 16 samples.

Results

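Genes known to respond to stretch and load of the heart wall were followed through RNA from formalin-fixed, paraffin-embedded (FFPE) cardiac tissue of rhesus macaques. The members are NPPB, CCN2, ANKRD1, XIRP1, XIRP2, FHL1, FHL2, NMRK2 and UCHL1. They were chosen by gene symbol and make up 9 of the 19425 genes in the count table, and all 9 were among the 14165 genes with enough counts to be tested. The members and the lists of other genes were chosen with earlier results of these data known. The counts called among them, set beside those of all genes, are therefore descriptions only. The libraries were 16 in number, 8 by each of the extraction methods, with 1 library per animal and method. Method QE is a column kit with xylene deparaffinization and added ethanol washes, and Method BL is the RNAstorm chemistry with a prolonged protease step. The 8 animals are named here by the code in the library names (r12075, r15045, r15089, r16010, r16116, rh2740, rh2957 and rhbi30). All of them are Macaca mulatta, and the study describes perfusion fixation and a model of right ventricular pressure overload. The labels give neither the condition, the age nor the heart chamber of an animal, so the animals were not grouped. Both libraries of an animal come from matching archived tissue, so a difference between methods is measured over 8 animals. A difference between animals is measured against the spread of the 2 extractions of an animal, which also holds any difference between the pieces extracted.

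When the wall of a ventricle is stretched, cardiomyocytes release natriuretic peptides, which relax vessels and promote sodium excretion. Stretch is also sensed inside the sarcomere, where titin and its partners at the I-band and Z-disc recruit LIM domain and ankyrin repeat proteins, and at the intercalated disc, where Xin repeat proteins bind actin. A separate route runs through the coactivator YAP and the TEAD transcription factors, for which CCN2 and ANKRD1 are well known targets.

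Depth and the markers of the labelled tissue were checked first. The estimated counts summed to 19.3 to 25.7 M per Method QE library and to 15.0 to 25.8 M per Method BL library. Levels are given as CPM (estimated counts of a gene scaled to a fixed library total) after TMM scaling, which removes differences in library composition. Of 8 ventricular cardiomyocyte markers, 6 were in the table, none was at 0 in all libraries, and their sum was 15990 to 24850 CPM with Method QE and 10150 to 21500 CPM with Method BL. MYH7 made up most of this sum, at 8659 to 19580 CPM over the 16 libraries. Of 10 atrial markers, 8 were in the table, and their sum was 79.7 to 118.7 CPM and 83.0 to 153.4 CPM, respectively. All 6 mesothelial and epicardial markers were in the table. They summed to 1.09 to 388.6 CPM with Method QE and 28.7 to 261.7 CPM with Method BL. Their sum was higher with Method BL in all animals but r12075 and rhbi30, for example 105.7 against 1.09 CPM in rh2957. In r12075 it was 388.6 CPM with Method QE and 95.8 CPM with Method BL. Within an animal, the tissue taken and the extraction cannot be told apart. The libraries of rh2957 stood apart from the others in the most genes, so results of the members that rest on this animal are also given without it. Counts of list genes that passed over animals or kept their order were not computed without it. In bulk tissue, fewer cells of a type and less RNA per cell cannot be told apart.

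The promoters are shown for NPPB, ANKRD1 and CCN2, since they were the members with the core letters bound by TEAD factors in the 250 bases before the RefSeq start. The letters searched were CATTCC and their reverse complement GGAATG, on both strands. They are printed in capitals, each stretch runs 5′ to 3′ on the strand of its gene, and coordinates are those of Mmul_10. All stretches end or lie upstream of the RefSeq 5′ end, and bases are counted upstream from it.
NPPB, 137 to 108 bases upstream, chr1:212599556-212599585, plus strand: cgcggaggggctCATTCCcgggccctgatc
NPPB, 109 to 80 bases upstream, chr1:212599584-212599613, plus strand: tctcagcggcccGGAATGtggctgataaat
ANKRD1, 60 to 1 bases upstream, chr9:91144645-91144704, minus strand: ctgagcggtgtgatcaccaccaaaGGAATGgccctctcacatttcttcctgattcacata
CCN2, 120 to 1 bases upstream, chr4:35502867-35502986, minus strand: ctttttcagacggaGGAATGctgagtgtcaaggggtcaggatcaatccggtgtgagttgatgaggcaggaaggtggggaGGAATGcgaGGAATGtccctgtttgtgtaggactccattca
CCN2 held 3 matches in its window, NPPB 2 and ANKRD1 1, while the other 6 members held none. The same letters were found in 2299 of 21102 promoters of this length, or 10.89%. The TATA letters TATAAA (9.9% of promoters) and the CArG box of serum response factor (1.02% of promoters) were found in none of the 9 windows. The gene model of the count table places the NPPB start 223 bases upstream of the RefSeq start, so both NPPB stretches lie inside that model. The starts of the counted and RefSeq models lie 38962 bases apart for FHL2, 27729 for XIRP2, 3109 for XIRP1 and 694 for FHL1. The windows of these genes thus do not lie at the start of the counted model, and the absence of a match holds for the RefSeq window alone. A match is a description of the letters and shows no binding.

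Compared per kilobase of the longest RefSeq transcript, the members covered a wide range of abundance. FHL1 (408.1 CPM per kb, range over 16 libraries 236.6 to 657.3) and FHL2 (351.5, range 185.4 to 632.4) were the most abundant. ANKRD1 followed with a mean of 158.4 CPM per kb and a range of 19.8 to 252.1. XIRP1 (33.7), XIRP2 (26.2), CCN2 (23.5), NPPB (23.4) and NMRK2 (23.1) had means that lay close together in CPM per kb, and their ranges overlapped. UCHL1 was the lowest at 9.15 CPM per kb, with a range of 2.69 to 18.4, which overlaps that of NMRK2 (8.95 to 40.1). The highest library exceeded the lowest by 45.4-fold for NPPB, 33.9-fold for XIRP2 and 12.8-fold for ANKRD1, but by 2.78-fold for FHL1.

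NPPB (ENSMMUG00000055655, chr1:212599470-212601438, plus strand) encodes the precursor of brain natriuretic peptide. With Method QE the libraries of r16116 and rhbi30 had 29.7 and 34.5 CPM, r15045 had 13.7, rh2957 had 9.28, r15089 had 5.09, r16010 had 3.58, r12075 had 2.26 and rh2740 had 1.91 CPM. With Method BL r16116 and rhbi30 had 52.05 and 86.65 CPM, while the others were at 2.17 (r15045), 2.89 (r12075), 5.32 (rh2957), 5.61 (r15089), 5.84 (rh2740) and 6.39 CPM (r16010). Both libraries of r16116 and of rhbi30 were thus above every library of the other 6 animals. The counts behind these values ran from 31 to 2371 per library, so the low libraries carry the largest counting error of this gene.

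CCN2 (ENSMMUG00000014150, chr4:35499614-35502804, minus strand) encodes connective tissue growth factor, a secreted matricellular protein. It ranged from 18.6 to 79.5 CPM with Method QE (median 55.2) and from 40.6 to 81.0 CPM with Method BL (median 60.2). The lowest library, rh2957 with Method QE (18.6 CPM), had a partner at 65.6 CPM with Method BL, and r15045 had 79.5 CPM with Method QE and 40.6 with Method BL. The difference between the libraries of an animal ran from -1.81 to 0.97 on the log2 scale for CCN2.

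ANKRD1 (ENSMMUG00000006632, chr9:91136244-91144658, minus strand) encodes cardiac ankyrin repeat protein, which binds the titin I-band and also enters the nucleus. In rh2957 its level was 57.6 CPM with Method QE and 39.1 with Method BL. In the other 7 animals it was 214.4 to 498.3 CPM with Method QE and 238.1 to 416.4 CPM with Method BL. The lowest of these 7 was rh2740 in both methods (214.4 and 238.1 CPM), so the libraries of rh2957 were apart from all 14 others.

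XIRP1 (ENSMMUG00000020150, chr2:94648316-94653850, minus strand) and XIRP2 (ENSMMUG00000013251, chr12:54055227-54398272, plus strand) encode Xin actin-binding repeat proteins of the intercalated disc and the Z-disc. The count table calls XIRP1 a pseudogene and RefSeq calls it protein coding, with a 5′ end 3109 bases further upstream, so its counts may cover part of the gene. XIRP1 ranged from 156.1 to 315.0 CPM with Method QE (median 233.5) and from 101.1 to 302.4 CPM with Method BL (median 216.4). XIRP2 was 38.8 and 23.9 CPM in rh2957 with Method QE and Method BL, and 103.9 and 134.9 CPM in r15089. It was 254.6 and 263.3 CPM in rh2740, 333.0 and 318.0 in r16010, 410.6 and 330.0 in r15045 and 450.1 and 396.9 in r12075. In r16116 it was 423.4 and 613.7 CPM, and in rhbi30 480.2 and 809.8 CPM. The libraries of rh2957 and then those of r15089 were the lowest in both methods, and the Method BL libraries of r16116 and rhbi30 were above all others.

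FHL1 (ENSMMUG00000007922, chrX:132242035-132312716, plus strand) and FHL2 (ENSMMUG00000016594, chr13:9108850-9146933, minus strand) encode LIM domain proteins that bind titin. FHL1 overlaps ENSMMUG00000057419 on the same strand and FHL2 overlaps C13H2orf49 on the opposite strand. The use of strand in counting is not given in the sources used here, so shared reads cannot be told apart. FHL1 ranged from 833.5 to 1824 CPM with Method QE (median 1111) and from 656.7 to 1704 with Method BL (median 916.9). FHL2 ranged from 519.0 to 1292 CPM (median 716.5) and from 378.8 to 892.3 CPM (median 667.5), respectively. The highest FHL2 library was rh2957 with Method QE at 1292 CPM, whose partner with Method BL was at 663.8 CPM, inside the range of the other animals.

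NMRK2 (ENSMMUG00000015273, chr19:3820873-3829543, plus strand) encodes the muscle nicotinamide riboside kinase, which feeds the salvage of NAD. It ranged from 14.6 to 42.0 CPM with Method QE and from 9.36 to 32.6 CPM with Method BL, and r16010 was the highest in both methods. UCHL1 (ENSMMUG00000013071, chr5:40423458-40437696, plus strand) encodes a ubiquitin hydrolase best known from neurons. It ranged from 5.42 to 20.3 CPM with Method QE and from 3.23 to 22.1 CPM with Method BL. The lowest UCHL1 level with Method BL was that of r16010 (3.23 CPM), and the highest was that of rhbi30 (22.1 CPM).

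**Figure D1:**
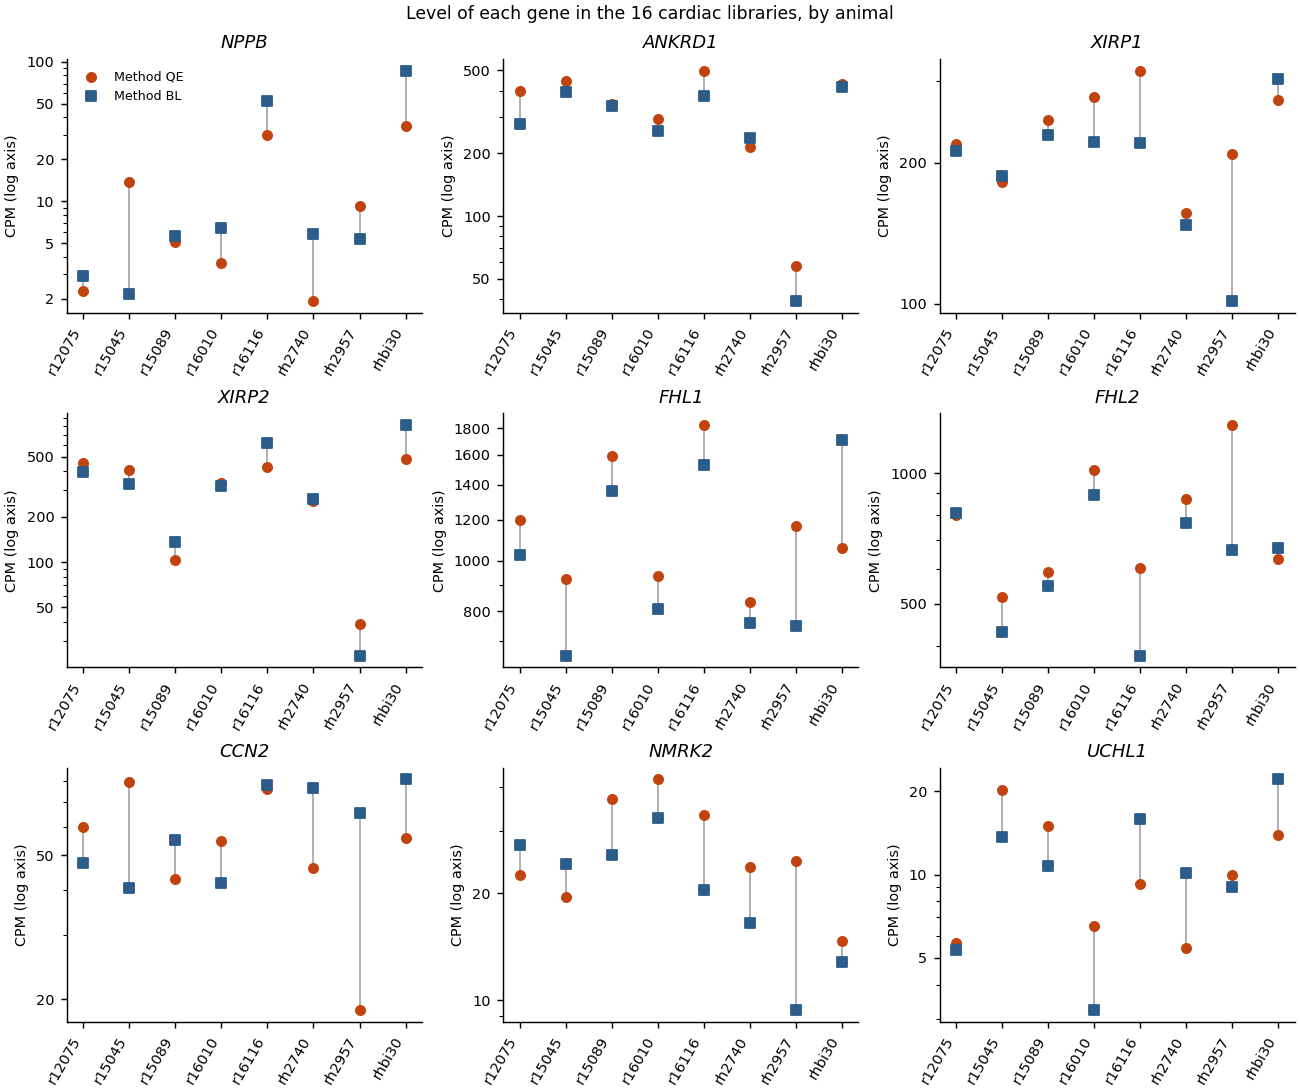
CPM of each of the 9 members by animal, on a log axis per gene, with a circle for Method QE, a square for Method BL and a line that joins the libraries of an animal. NPPB is high in both libraries of r16116 and rhbi30, ANKRD1 and XIRP2 are low in both libraries of rh2957, and the CCN2 libraries of rh2957 lie far apart (18.6 and 65.6 CPM).

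Whether the extraction changed the members was tested in edgeR by the quasi-likelihood method, in a fit that held the animal as a block, and p-values were adjusted by Benjamini-Hochberg over all genes tested. None of the 9 members passed an adjusted p of 0.05, where 2.14% of all genes did, 121 higher and 182 lower with Method QE. At an unadjusted p of 0.05, 3 members (ANKRD1, FHL2 and NMRK2) and 2552 of the 14165 genes passed. NMRK2 had the largest mean difference toward Method QE, 0.39 on the log2 scale (SE 0.153, adjusted p = 0.200), with 27.2 ± 9.30 CPM against 21.1 ± 7.84 CPM (SD, n = 8) and higher values in 6 of 8 animals. FHL2 differed by 0.28 (SE 0.115, adjusted p = 0.212, higher in 6 of 8 animals) and ANKRD1 by 0.22 (SE 0.088, adjusted p = 0.204, higher in 7 of 8). XIRP1 differed by 0.24 (SE 0.115, adjusted p = 0.296) and FHL1 by 0.19 (SE 0.125, adjusted p = 0.457). The differences of XIRP2 (-0.06, SE 0.138), UCHL1 (-0.02, SE 0.196), CCN2 (-0.22, SE 0.227) and NPPB (-0.28, SE 0.351) were smaller than or close to their errors, with adjusted p of 0.660 or more. These standard errors leave room for a difference in either direction for these 4 genes, so equal levels in both methods are not shown. Without rh2957 the difference was 0.25 for NMRK2, 0.19 for FHL2, 0.18 for ANKRD1, 0.13 for XIRP1 and 0.13 for FHL1. It was -0.002 for CCN2, -0.04 for UCHL1, -0.16 for XIRP2 and -0.46 for NPPB, and again no member was called. Part of the differences of NMRK2, FHL2, XIRP1 and CCN2 thus rests on that animal.

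The same animal gave less repeatable values for some members than for others. The median distance between the libraries of an animal was 0.13 for XIRP1, 0.18 for FHL2, 0.19 for ANKRD1, 0.24 for FHL1 and 0.35 for XIRP2 on the log2 scale. It was 0.44 for NMRK2, 0.46 for CCN2, 0.61 for UCHL1 and 0.81 for NPPB. The smallest counts of these last genes were 229, 494, 80 and 31 per library, below those of the other members (585 or more). The part of counting error in the distances was not tested.

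The Method BL library names carry a mark, B for 5 animals and R for 3, whose meaning is not given in the sources used here. Among the Method QE library names, those of r12075 and rhbi30 carry a prefix that the others lack. Its meaning is not given either, and its part in the results was not tested. NPPB was lower with Method QE in all 5 animals marked B, by 0.34 (r12075), 0.81 (r16116), 0.82 (r16010), 1.33 (rhbi30) and 1.57 (rh2740) on the log2 scale. In the 3 animals marked R the difference was 2.61 (r15045), 0.79 (rh2957) and -0.14 (r15089). Fitted on the animals marked B alone, the NPPB difference was -1.02 (edgeR, adjusted p = 0.0206, with 0.345% of genes called), and on those marked R alone it was 1.04 (adjusted p = 0.785, with 0% of genes called and 870 at an unadjusted p of 0.05). The difference between the marks, added after the data were seen, was 2.04 (SE 0.475, adjusted p = 0.998 by edgeR over all genes). At this test 0% of the 14165 genes were called and 534 had an unadjusted p under 0.05. In r15045, which had the largest single difference, the 8 fibroblast markers summed to 4574 CPM with Method QE and 1158 CPM with Method BL, and their part in the result was not tested. Without r15045 the NPPB difference over the remaining animals was -0.62 (adjusted p = 0.151).

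**Figure D2:**
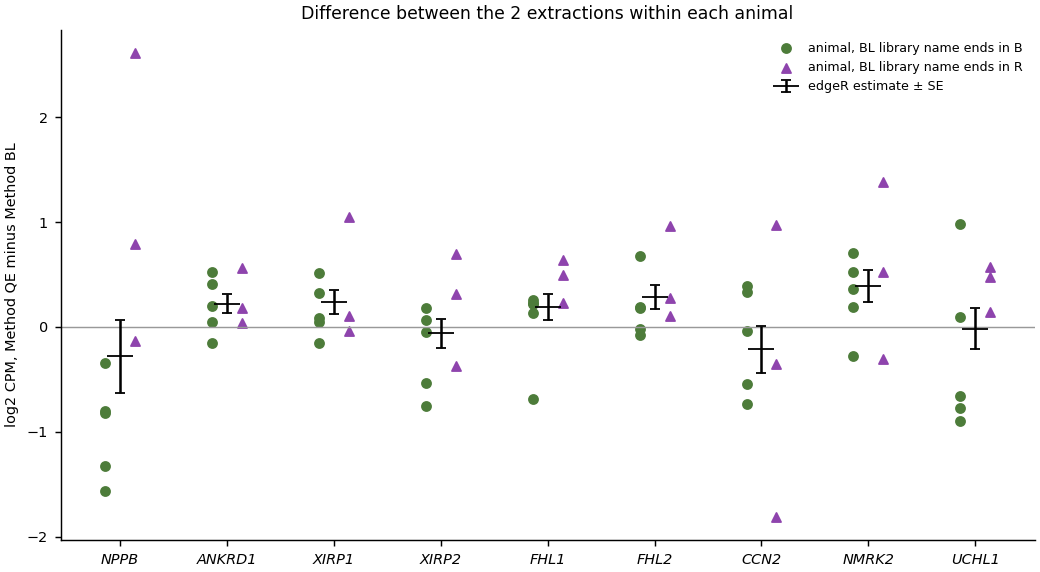
Difference in log2 CPM, Method QE minus Method BL, for each member, with 1 point per animal (circles for mark B and triangles for mark R in the Method BL library name) and the edgeR estimate with its standard error as a bar. The 5 circles of NPPB lie below 0 and its triangles run from -0.14 to 2.61.

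The animals differed in most members. In the same fit, 8 of 9 members passed the test over animals (edgeR, adjusted p under 0.05), where 31.5% of all genes did. CCN2 was the exception (adjusted p = 0.597). ANKRD1 (F = 47.9, adjusted p = 4.71e-06) and XIRP2 (F = 36.7, adjusted p = 1.51e-05) ranked 70 and 116 among the 14165 genes by F. Without rh2957 both were still called, and their fitted range over animals was 0.93 in place of 3.18 for ANKRD1 and 2.42 in place of 4.35 for XIRP2 on the log2 scale. NPPB followed (F = 14.3, adjusted p = 0.000733, with a larger F in 4.41% of genes), with a fitted range of 4.51 on the log2 scale from the lowest to the highest animal. The adjusted p was 0.0123 for UCHL1, 0.0128 for FHL2, 0.0156 for FHL1, 0.0287 for NMRK2 and 0.0312 for XIRP1. Of these, FHL1 was not called without r16116 (adjusted p = 0.0554). XIRP1 was not called without rh2740 (0.0866) or rhbi30 (0.0509), and NMRK2 was not called without r16010 (0.104) or rhbi30 (0.0983). Without the method term in the model, 6 members were called, and XIRP1 (0.0683) and NMRK2 (0.077) were not. These p-values weigh the animals against the spread between 2 extractions of an animal, which also holds any difference between the pieces extracted. Each animal is 1 individual.

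To say which animals carried these differences, each animal was set against the mean of the other 7, a step added after the data were seen. In r16116, 4 members were higher, where 6.36% of all genes were called higher and 10.4% in either direction. NPPB was higher there by 2.48 on the log2 scale (SE 0.397, edgeR adjusted p = 0.00188), or 5.57-fold, XIRP2 by 1.18 (adjusted p = 0.00168), ANKRD1 by 0.80 (adjusted p = 0.00161) and FHL1 by 0.71 (adjusted p = 0.0236). Without rh2957 the values in r16116 were 0.70 for XIRP2 and 0.40 for ANKRD1, and both were still called. In this animal the 6 ventricular markers summed to 15990 CPM with Method QE, the lowest of that method, and 11180 CPM with Method BL. All 8 fibroblast markers were in the table and summed to 1715 and 6605 CPM, against 736.7 to 1915 CPM in the libraries of the other animals except r15045 with Method QE (4574 CPM), and the part of these markers in the result was not tested. In rhbi30, where 2.14% of all genes were called higher and 3.19% in either direction, NPPB was higher by 3.11 (SE 0.384, adjusted p = 0.000546), or 8.61-fold, XIRP2 by 1.54 (adjusted p = 0.000367, 1.06 without rh2957) and ANKRD1 by 0.76 (adjusted p = 0.00438). Its mesothelial and epicardial markers summed to 324.2 and 261.7 CPM with Method QE and Method BL. The other animals had 1.09 to 147.2 CPM, except r12075 with Method QE (388.6 CPM). The endothelial markers of rhbi30 summed to 516.3 and 448.1 CPM, the lowest of each method. The part of these markers in the result was not tested. The ANKRD1 values of rhbi30 and of r15045 (0.74, adjusted p = 0.00545, with 4.41% of all genes called in r15045) rest on the low level of rh2957, and without that animal they were 0.36 and 0.34 and were not called.

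In rh2957, ANKRD1, XIRP2 and XIRP1 were lower and FHL2 was higher, while FHL1 was not called. ANKRD1 was lower there by 2.84 on the log2 scale (SE 0.169, adjusted p = 1.21e-07), or 7.15-fold, and XIRP2 was lower by 3.43 (SE 0.272, adjusted p = 1.75e-06), or 10.8-fold. XIRP1 was lower by 0.56 (adjusted p = 0.0402), with its lowest library at 101.1 CPM by Method BL and a partner at 209.1 CPM inside the range of the other animals. FHL2 was higher by 0.53 (adjusted p = 0.0338). Both of the latter calls were lost with some single animals left out, at adjusted p of 0.061 to 0.0725 for XIRP1 (without r15089, r16010, r16116 or rhbi30) and 0.0624 to 0.0714 for FHL2 (without r15045, r15089 or r16116). In this animal 22.8% of all genes were called, the largest share of the 8 animals, and 10.8% were called lower. Markers of other cells moved as well. The 7 macrophage and leukocyte markers, all in the table, summed to 447.1 and 655.3 CPM in rh2957 with Method QE and Method BL, against 119.2 to 327.6 CPM in the other libraries. The 6 adipocyte markers summed to 33.6 and 262.8 CPM, and the 6 ventricular markers to 19440 and 10150 CPM. With Method QE the ventricular sum of rh2957 was inside the range of the other animals (15990 to 24850 CPM), and ANKRD1 and XIRP2 were low in that library as well. Most of this sum was MYH7 (16670 CPM), so it says little of other cardiomyocyte genes. With Method BL the ventricular sum of rh2957 was the lowest of the 16 libraries. The part of these markers in the result was not tested.

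Single members were called in other animals. XIRP2 was lower in r15089 by 1.24 (adjusted p = 0.00854, with 2.98% of genes called) and higher in r12075 by 0.86 (adjusted p = 0.0174, with 7.4% called). In r16010, where 7.31% of genes were called, NMRK2 was higher by 0.79 (adjusted p = 0.0387) and UCHL1 was lower by 1.18 (adjusted p = 0.0428). The XIRP2 call in r12075 was lost without r15089 (adjusted p = 0.0684) or rh2957 (0.193), and without rh2957 its value was 0.38. The NMRK2 call was lost without rh2740 (0.0596) or rhbi30 (0.0917), the UCHL1 call without r15045 (0.0546), r15089 (0.0642) or rhbi30 (0.0651), and the FHL1 call in r16116 without rh2740 (0.0553). No member was called in rh2740, where 3.42% of genes were called. NPPB in r16116 and rhbi30, ANKRD1 in rh2957 and r16116, and XIRP2 in r15089, r16116, rh2957 and rhbi30 kept their call and direction under each scaling, filter, tool and left-out animal that was tried.

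**Figure D3:**
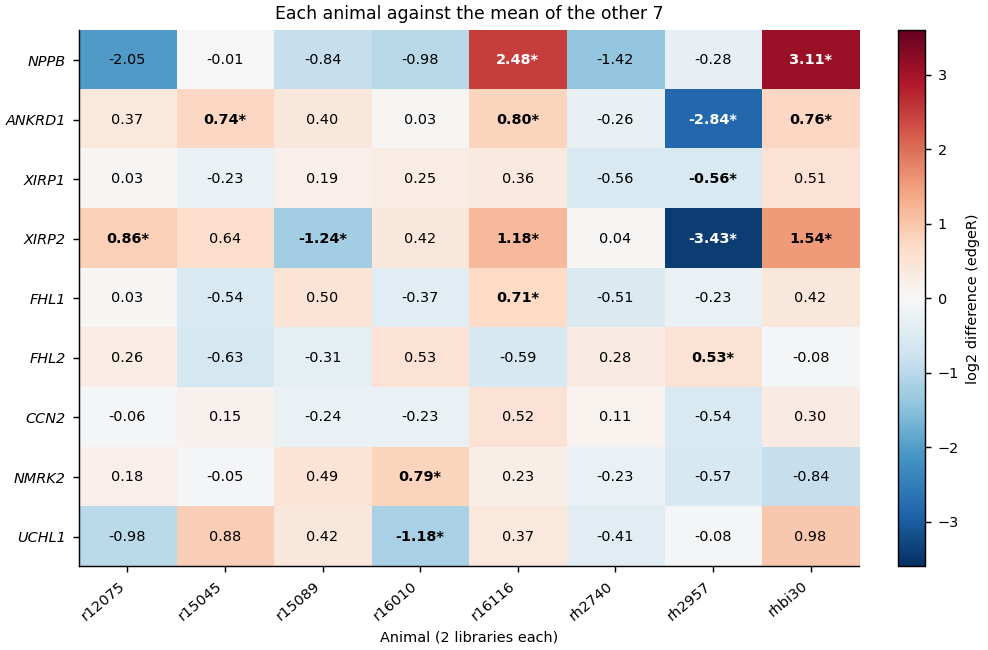
Log2 difference of each animal from the mean of the other 7 for the 9 members, as a colour and a printed value, with an asterisk where the edgeR adjusted p was under 0.05. NPPB stands out in r16116 (2.48) and rhbi30 (3.11), and ANKRD1 (-2.84) and XIRP2 (-3.43) in rh2957.

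A further question was whether a member put the 8 animals in the same order in both extractions. Over log2 CPM of the 8 animals, XIRP2 (Pearson r = 0.965, exact permutation p = 0.000198, adjusted p = 0.0192, Spearman rho = 0.976, exact p = 0.000198) and ANKRD1 (r = 0.976, exact permutation p = 0.00129, adjusted p = 0.0299, rho = 0.881, exact p = 0.00362) passed the one-sided test. Over all genes 11.5% passed, with a median r of 0.505. With 1 animal left out, r stayed at 0.84 to 0.988 for ANKRD1 and 0.882 to 0.975 for XIRP2. The adjusted exact permutation p then rose above 0.05 for ANKRD1 without r12075, r16010, r16116, rh2740 or rh2957 (0.0505 to 0.088) and for XIRP2 without r15089, r16010 or rh2957 (0.0504 to 0.0535). With fewer animals there are fewer pairings and the smallest possible p is larger. A lost call therefore does not by itself show that the order rests on the animal left out. Without rh2740, for example, the r of ANKRD1 was 0.988 at an adjusted exact permutation p of 0.0738. Without rh2957 and rhbi30, the animals farthest from the median, r was 0.912 for XIRP2 (exact p = 0.00694) and 0.854 for ANKRD1 (exact p = 0.0167). NPPB had r = 0.712 (exact permutation p = 0.0294, adjusted p = 0.104) and rho = 0.357 (exact p = 0.195), and without rhbi30 and r16116 its r was -0.38, so its relation rests on those animals. FHL2 (0.681), FHL1 (0.675), UCHL1 (0.627), XIRP1 (0.598) and NMRK2 (0.526) had a positive r that did not pass after adjustment (adjusted exact permutation p = 0.0994 to 0.195). CCN2 had r = -0.23 (adjusted exact permutation p = 0.714), so a common order of the animals in both extractions was not shown for it.

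**Figure D4:**
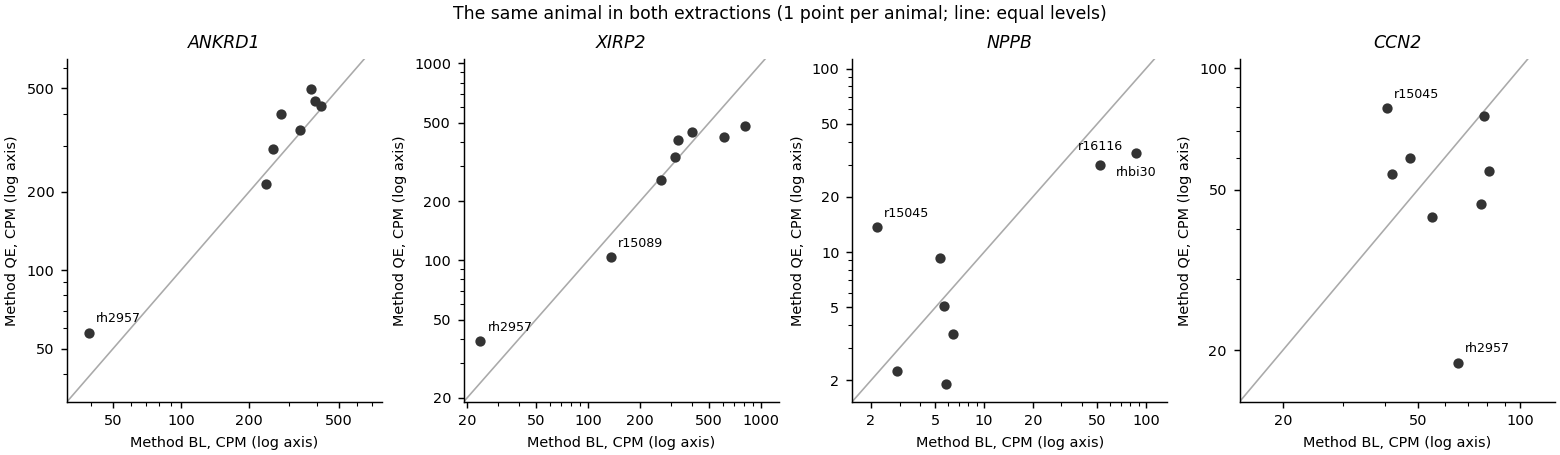
CPM with Method QE against CPM with Method BL, both on log axes, for ANKRD1, XIRP2, NPPB and CCN2, with 1 point per animal and a line of equal levels. ANKRD1 (r = 0.976) and XIRP2 (r = 0.965) run along the line, the NPPB relation (r = 0.712) rests on r16116 and rhbi30, and CCN2 (r = -0.23) has rh2957 and r15045 far from the line.

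The members were then compared with NPPB over the animal means of log2 CPM. Correlation with NPPB was tested for 14164 genes by exact permutation, two-sided, and 0% passed an adjusted p of 0.05, with 876 genes at an unadjusted p under 0.05. Among the 8 other members r was 0.639 for FHL1, 0.626 for UCHL1, 0.587 for XIRP1, 0.564 for CCN2, 0.331 for XIRP2, 0.26 for ANKRD1, -0.39 for NMRK2 and -0.45 for FHL2, with adjusted exact permutation p of 0.811 to 0.945. Spearman's rho was 0.738 for UCHL1 (exact permutation p = 0.0458 unadjusted) and lay between -0.41 and 0.55 for the other 7. Without rhbi30 and r16116, the animals farthest from the NPPB median, r was 0.552 for UCHL1 and below 0 for the other 7 members, for example -0.69 for XIRP2 and -0.49 for ANKRD1. Among genes with a mean log2 CPM of at least 3, the 6 most like NPPB by r over the 8 animals were ERBIN (0.970), RFX7 (0.946), GPNMB (0.934), FN1 (0.918), SAT1 (0.918) and ENAH (0.918). None passed after adjustment (exact permutation, adjusted p = 0.659 to 0.721). Without the same animals r was 0.892 for GPNMB and 0.45 to 0.713 for the other 5.

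The natriuretic peptide system was described by 10 further genes. None passed the test of method, their median difference was 0.02 against 0.00 over all genes, and 5 of 10 passed the test over animals, where 31.5% of all genes did. NPPA, the precursor of atrial natriuretic peptide, was at 30.5 and 44.5 CPM in rhbi30 and at 12.1 and 31.2 CPM in r16116 with Method QE and Method BL. It was at 9.82 CPM or less in the other libraries except rh2957 with Method BL (16.4 CPM), whose Method QE partner had 0.264 CPM, and it was at 0 in both libraries of r15089. The atrial genes MYL4 and MYL7 were at 14.27 and 27.93 CPM in rh2957 with Method BL, against 1.81 and 7.164 CPM with Method QE. In r16116 MYL4 was at 10.23 and 8.299 CPM and MYL7 at 11.19 and 14.56 CPM with Method QE and Method BL. In rhbi30, the animal highest in NPPA, MYL4 was at 2.984 and 3.289 CPM and MYL7 at 2.702 and 1.316 CPM. The part of atrial tissue in the NPPA levels was not tested. NPPA passed the test over animals (edgeR, adjusted p = 0.00763). CORIN, the protease that cleaves the NPPA precursor, was at 36.4 and 32.3 CPM in r16116 and at 155.9 and 153.1 CPM in r12075. It was lower in r16116 by 1.48 (adjusted p = 0.00033) and in rh2957 by 0.96 (adjusted p = 0.00142). FURIN, a protease that can cleave the NPPB precursor, was at 140.6 and 112.4 CPM in rh2957, higher by 0.75 (adjusted p = 0.000553), against 61.1 to 96.3 CPM in the others. PCSK6, a related convertase that activates corin, was higher in r15045 by 0.76 (adjusted p = 0.00719).

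Of 18 genes of YAP and TEAD mechanosensing, none passed the test of method (median 0.05) and 5 (against 31.5% of all genes) passed the test over animals. TEAD1, the main TEAD factor of heart muscle, was at 57.1 and 49.1 CPM in rh2957 against 65.1 to 108.8 CPM elsewhere, lower by 0.68 (adjusted p = 0.000377). AMOTL2 and LIMD1, regulators of YAP at junctions, were lower there by 0.62 (adjusted p = 0.00107) and 0.59 (adjusted p = 0.00129). AMOTL1, the most abundant of the list, was higher in r15089 by 0.48 (adjusted p = 0.0471), a call lost without any 1 of r12075, r16010, r16116, rh2740 and rhbi30 (adjusted p up to 0.101). STK4, a Hippo pathway kinase, had an adjusted p of 0.0501 over animals by edgeR and 0.0244 by DESeq2. It was higher in r16116 by 0.44 (edgeR, adjusted p = 0.0202), where 10.4% of all genes were called in either direction. That call was kept with each other animal left out (adjusted p up to 0.0419).

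Of 16 partners of the I-band and Z-disc, 11 were lower in rh2957 and none higher, where 10.8% of all genes were called lower. The marker sums of this animal given above (macrophage and leukocyte 447.1 and 655.3 CPM, ventricular 19440 and 10150 CPM) moved with this count, and their part in it was not tested. Of the 16 genes none passed the test of method (median 0.12), and 12 (against 31.5% of all genes) passed the test over animals. Of the same 16 genes, 7 kept their order of animals in both extractions (11.5% of all genes did), with a median r of 0.80 against 0.505 over all genes. The counts of 12 and 7 and this median were not computed without rh2957. Without that animal the call of LDB3 over animals was lost (edgeR, adjusted p = 0.172), while those of SYNPO2L, MYOZ2 and LMOD2 were kept. LDB3, a Z-disc PDZ and LIM protein, was at 228.9 and 144.7 CPM in rh2957 against 636.0 to 1526 CPM elsewhere, lower by 2.49 (SE 0.276, adjusted p = 2.97e-05). SYNPO2L, an actin-bundling Z-disc protein, was lower by 1.50 (adjusted p = 4.67e-05), MYOZ2, a calcineurin-binding Z-disc protein, by 1.12 (adjusted p = 0.000261), and LMOD2, which sets thin filament length, by 1.11 (adjusted p = 0.000274). TTN, titin itself, was the most abundant of the list at 53030 to 135500 CPM and did not pass (adjusted p = 0.356).

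Among 14 genes of the CCN family and the input from TGF-beta, none passed the test of method (median -0.01) and 5 (against 31.5% of all genes) passed the test over animals. SMAD3, which carries the TGF-beta signal to the nucleus, was at 39.9 and 45.2 CPM in rh2957 against 16.1 to 24.0 CPM elsewhere, higher by 1.14 (SE 0.100, adjusted p = 3.46e-06). CCN5, a CCN family member without the C-terminal domain, was higher there by 1.15 (adjusted p = 0.00275). TGFB2, a TGF-beta ligand, was higher in r16116 by 1.13 (adjusted p = 0.00439). THBS1, an activator of the latent ligand, had an adjusted p of 0.0865 over animals, and TGFBR2, the receptor, had 0.0255.

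Around the enzymes of the set, NAD salvage and ubiquitin genes were listed. Of 12 NAD salvage genes, none passed the test of method (median 0.00) and 3 (against 31.5% of all genes) passed that over animals. NMNAT2, which makes NAD from its mononucleotide, was lower in rh2957 by 1.22 (adjusted p = 0.000266), QPRT of the de novo route was higher in r15045 by 1.07 (adjusted p = 0.0072), and NAMPT, the main salvage enzyme, had an adjusted p of 0.0243 over animals. Of 7 deubiquitinases and ubiquitin genes near UCHL1, UBB was higher with Method QE by 0.35 (edgeR, adjusted p = 0.0267, higher in 8 of 8 animals), where 2.14% of all genes were called. None of the 7 passed the test over animals, where 31.5% of all genes did. The UBB call was lost without r15089, r16010, r16116, rh2740 or rhbi30 (adjusted p = 0.0528 to 0.0836). It was also lost with an offset for length and GC content (edgeR, adjusted p = 0.144) and in either set of marked animals.

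Of 11 genes linked to load and hypertrophy, none passed the test of method (median 0.02) and 6 (against 31.5% of all genes) passed that over animals. ACTA1, skeletal actin re-expressed in loaded hearts, was at 20.5 and 24.9 CPM in rh2957 against 179.8 to 1908 CPM in the others, lower by 4.76 (SE 0.411, adjusted p = 3.21e-06). It was at 1908 and 1600 CPM in r16116, higher by 2.40 (adjusted p = 5.41e-05), and at 599.2 and 1550 CPM in rhbi30, higher by 1.63 (adjusted p = 0.00297). Without rh2957 these values were 1.75 in r16116 (adjusted p = 0.00072) and 0.99 in rhbi30, which was then not called (adjusted p = 0.0549). POSTN, a matrix protein of activated fibroblasts, was at 32.3 and 117.7 CPM in r16116, higher by 2.87 (adjusted p = 0.00401). Its highest Method QE library was that of r15045, at 68.0 CPM with a Method BL partner at 8.04 CPM, and its call over animals was lost with limma-voom (adjusted p = 0.159). The fibroblast markers of r16116 and r15045 given above stood apart in the same libraries, and their part in the result was not tested. CSRP3, a Z-disc LIM protein, was lower in rh2957 by 1.15 (adjusted p = 0.00154), while MYH7, the slow myosin heavy chain, did not pass over animals (adjusted p = 0.356). Leaving out animals was run for the genes named here. The call over animals of FURIN, LIMD1, LDB3, SMAD3, CCN5 and TGFBR2 was lost without rh2957 (adjusted p = 0.0612 to 0.534), that of TGFB2 without r16116 (0.192), that of PCSK6 without r15045 (0.361) or rhbi30 (0.0565), that of AMOTL1 without r15089 (0.0672) that of NAMPT without r16010 (0.0613) and that of TGFBR2 also without r12075 (0.0889).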

How the data were processed

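Total RNA of FFPE heart tissue of 8 macaques was extracted by Method QE and Method BL and sequenced as 16 rRNA-depleted, stranded libraries. Per the submitters' notes and the study's methods, reads were aligned with STAR 2.7.8a to Mmul_10 and quantified in Partek with Ensembl transcripts. The authors deposited estimated counts per gene, not normalized, and 76.72% of values were whole within 1e-06. The labels name the Method QE kit as the extraction protocol of all samples, which conflicts with their other labels, and the method label was used. Libraries of an animal were paired by library name, and 15 of 16 correlated best with their partner (16 of 16 on values centred per gene). Correlations of deviations within animals were 0.34 to 0.64, and those between libraries of the same replicate number were -0.34 to 0.61. The libraries of rh2957 share a replicate number too, so that pair is in both ranges. In all other animals the replicate number differs between the methods, so replicate numbers were not used.

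Counts were rounded, filtered with filterByExpr (14165 of 19425 genes), scaled by TMM and tested with edgeR 4.0.16 (R 4.3.3) by the quasi-likelihood test in a model of animal and method, with Benjamini-Hochberg adjustment and a threshold of 0.05. Differences are log2 values coded as Method QE minus Method BL, and a standard error is the fold change over the square root of F. Log2 CPM has a prior count of 2. Permutation tests over 8 animals enumerated 40320 pairings, and their smallest p is 2.48e-05. Promoters and transcript lengths came from RefSeq on Mmul_10. In each list the text names up to 4 genes with the smallest p and the 2 most abundant, besides the members and the 6 genes most correlated with NPPB at a mean log2 CPM of at least 3. Some genes that this rule names are not reported here. The members and lists were chosen with earlier results of these data known. The comparison of single animals and of library-name marks was added after the data were seen. Alternatives used limma 3.58.1 and DESeq2 1.42.0, other scalings and filters, no replicate block, no method term, and each animal left out. Scripts were tested on simulated data.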

Additional observations from a re-analysis of the deposited data

Results flagged for a closer look

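ANKRD1 in rh2957 was far below the other animals of its group in both methods, at 57.61 CPM with Method QE and 39.05 CPM with Method BL. CCN2 in rh2957 with Method QE was far below the other libraries of that method at 18.63 CPM, while its Method BL partner was at 65.59 CPM. Of 18 groups of 8 libraries examined (9 members in each method), these 3 held a library beyond the Dixon limit (gap over range above 0.526). For independent groups chance gives about 1 in 20. All of these libraries are from rh2957, and ANKRD1 enters by both methods. The groups are thus not independent, and the count cannot be weighed against that rate. The difference of NPPB between methods was larger by 2.037 on the log2 scale in the 3 animals marked R than in the 5 marked B (SE 0.475, adjusted p = 0.998 by edgeR over all genes), and the mark is not explained in the sources used here.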

How the results depend on the processing

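The count of genes called for method over all genes, 303, was 5 with no replicate block, 583 with DESeq2, 29 with the replicate block and an offset for length and GC content, 49 in the animals marked B alone, 0 in those marked R alone, and 37 to 355 with each animal left out. Called members for method were 0 in all settings except the animals marked B alone, with 1 (NPPB). Called genes of the lists (1, UBB) were 0 with no replicate block, in either set of marked animals and with the offset, 3 with DESeq2, and 0 to 1 with each animal left out. Of the calls of single animals among members, 16, there were 29 with DESeq2 and 11 to 19 with each animal left out. Members that kept their order of animals, 2, were 0 to 2 with each animal left out, and 0 without r16010 or without rh2957. The permutation test has fewer pairings with an animal left out, which also raises its p. The difference between methods turned its sign for NPPB in the animals marked R (1.042), for XIRP2 in those marked R (0.21), with the offset (0.031) and with an animal left out (-0.164 to 0.038), and for UCHL1 in those marked R (0.399) and with an animal left out (-0.145 to 0.104). With no replicate block the NPPB difference was -0.75. Without the 2 animals farthest from the median, the r between extractions was -0.382 for NPPB and 0.107 for CCN2, and the r with NPPB was -0.485 for ANKRD1, -0.655 for CCN2, -0.181 for XIRP1, -0.691 for XIRP2 and -0.031 for FHL1. The r of NMRK2 with NPPB ran from -0.608 to 0.031 with each animal left out. The causes were not tested. Among the other values of single genes, 1341 kept direction and side of the threshold, 64 lost the call and 20 gained one. Depth limits the low libraries of NPPB, whose counts fell to 31.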
